A study of Mus musculus with 16 samples.

Results

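Gastrocnemius muscle of mice with a CT26 tumor (T group) was compared with that of tumor-free mice (C group), both without exercise training. The comparison took 8 of the 16 sequenced libraries, 4 T and 4 C mice, chosen by their group labels alone, and covered all genes with enough counts. The animals were male wild-type BALB/c mice bought at 8 weeks of age. T mice received CT26 cells, a colon carcinoma line of BALB/c origin, under the skin of the left dorsolateral hind limb. C mice received saline at that place, and both groups stood on a treadmill that did not move each day as a handling control. Tissue was taken after 4 weeks. The labels call the tissue skeletal muscle, the gastrocnemius is named in the methods of the study, and the side that was sampled is not given in the sources used here. Each group held 12 mice, of which 4 were sequenced, and all 16 libraries carry the same batch number. The other 8 libraries are from tumor-free (E) and tumor-bearing (TE) mice of the same strain that ran on a treadmill at 14 m/min for 60 min on 6 days a week. Those mice share no animal with the T and C groups. They entered the fit behind the T versus C tests, in which all 16 libraries set the filter on low counts, the scaling and the spread. They are also used where the same tumor contrast is looked at in trained muscle.

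Skeletal muscle responds to a tumor elsewhere in the body through circulating factors. Cytokines of the IL-6 family act on receptors that share gp130 with ligand-binding chains such as the oncostatin M receptor, and they activate STAT3, which switches on acute phase genes and its own inhibitor Socs3. Glucocorticoids and FoxO factors, which insulin and IGF signaling restrain through Akt, raise the ubiquitin ligases Fbxo32 (atrogin-1) and Trim63 (MuRF1), which mark muscle proteins for degradation. A muscle sample also holds capillaries, nerve, fat, connective tissue and blood, and tumors are known to raise the number of circulating neutrophils.

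The defining genes of skeletal muscle (Acta1, Ckm, Myh4, Mylpf and Tnnt3) were high in every library, with summed levels of 102053 to 115495 CPM in C and 106939 to 120683 CPM in T mice. Levels are given in CPM, that is, as counts scaled by library size and TMM factors. Library totals were 35628211 to 36779110 counts in C and 36609982 to 37563279 in T mice. No T or C library was a copy of another of its own group, since such pairs differed by a chi-square of 12.7 to 61.3 for each degree of freedom. Libraries C2 and C3 stood apart by lymphocyte and lymph node genes. Summed levels of 4 T cell markers were 3.24 CPM in C2 and 7.15 in C3, and 0.202 to 0.605 in the other 6 libraries. Summed levels of 5 B cell and lymph node markers were 16.4 CPM in C2 and 32.6 in C3, against 3.61 to 9.65 in the other 6 libraries. Whether such a difference reflects the number of cells of a type or the RNA per cell cannot be told apart in bulk tissue. The counts of calls are also given without these libraries.

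Of 35415 genes listed, 14749 had enough counts to be tested, and 100 differed between T and C mice at an adjusted p-value under 0.05 (quasi-likelihood test of edgeR, adjusted by the Benjamini-Hochberg method). Of these, 76 were higher in T mice (0.515% of the genes tested) and 24 were lower (0.163%). The differences were mostly small. Under the study's definition of DEGs, which adds a fold change above 2 or below 0.5, 35 were higher (0.237%) and 7 lower (0.0475%), while the other 58 called genes changed by less than that. The median log2 fold change of the called genes was 0.91 for those higher and -0.69 for those lower, beside -0.0012 over all genes tested. At an unadjusted p-value under 0.05 there were 2093 genes. DESeq2 on the same libraries called 424 genes at the adjusted threshold, and edgeR called 9 without C2 and C3, of which 4 were DEGs. The 100 calls come from a fit of all 16 libraries. With the T and C libraries fitted alone, edgeR called 30 genes, and 71 of the 100 calls lost the threshold.

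In 96 of the 100 called genes, every T mouse lay on the same side of every C mouse, 73 above and 23 below. The exceptions were Med13l, Ccnd1, Ccr1 and Tspan11. Over all genes tested, 595 (4.03%) lay wholly higher and 417 (2.83%) wholly lower in T mice, so that 916 of the 1012 genes without overlap were not called. Scaled as FPKM, without TMM factors, 390 genes lay wholly higher and 621 wholly lower, so the balance of directions among the genes without overlap depended on the scaling. As whole profiles, T and C mice lay 74.2 apart on average (Euclidean distance over log2 CPM), with 66.0 between C mice and 71.3 between T mice. The excess of the distance between groups over that within groups was 5.61, above that of the other splits of the 8 mice into 4 and 4 (exact permutation test over 70 splits, one-sided, p = 0.0286, the smallest this design allows). Without any 1 of C1, C2, C3, C4 or T3 it no longer passed (exact permutation p = 0.0571 to 0.0857). The nearest neighbor of T2 was nevertheless a C mouse, C1.

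**Figure D1:**
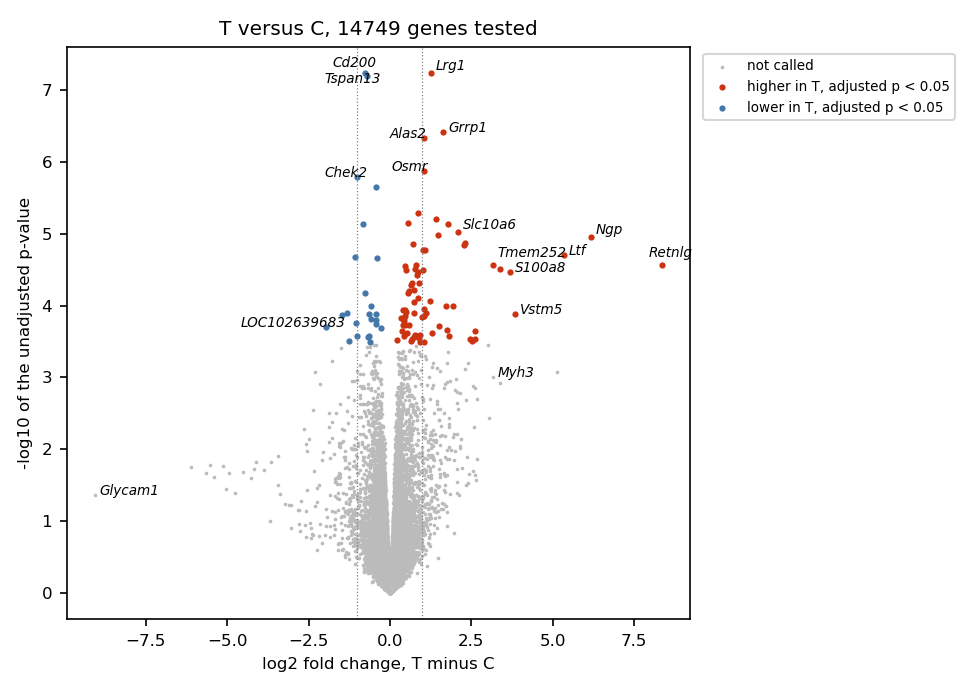
Each point is a gene tested in T versus C mice, with the log2 fold change (T minus C) on the horizontal axis and -log10 of the unadjusted p-value from edgeR on the vertical axis. Red points are the 76 called genes higher in T mice and blue points the 24 lower, grey points were not called, and dotted lines mark a 2-fold difference. The neutrophil genes Retnlg, Ngp and Ltf lie far to the right, and Glycam1, a lymph node gene at 0 in every T mouse, lies far to the left without being called.

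Few of the calls withstood the loss of any mouse. With each of the 8 mice left out in turn, 16 genes were called every time: Lrg1, Osmr, Stat3, Lbp, Alas2, Hbb-bs, Slc10a6, Map3k6, Acer2, Grrp1 and Agfg2, which were higher in T mice, and Cd200, Tspan13, Cav1, Chek2 and Septin1, which were lower. Of these, Lrg1, Osmr, Alas2, Grrp1, Cd200, Tspan13 and Septin1 (7 genes) also stayed called under every one of the 15 alternative settings checked for single genes. No called gene changed direction in any of those settings that gave it a test. The robust fit, which called 74 genes, was not checked gene by gene. The other 84 called genes all lost the threshold without C4. The number of calls lost was 43 without C1, 50 without C2, 70 without C3, 47 without T1, 5 without T2, 67 without T3 and 31 without T4. Genes outside the 16 are described here with that limit, and the highest adjusted p-value with 1 mouse left out is given for the main ones.

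**Figure D2:**
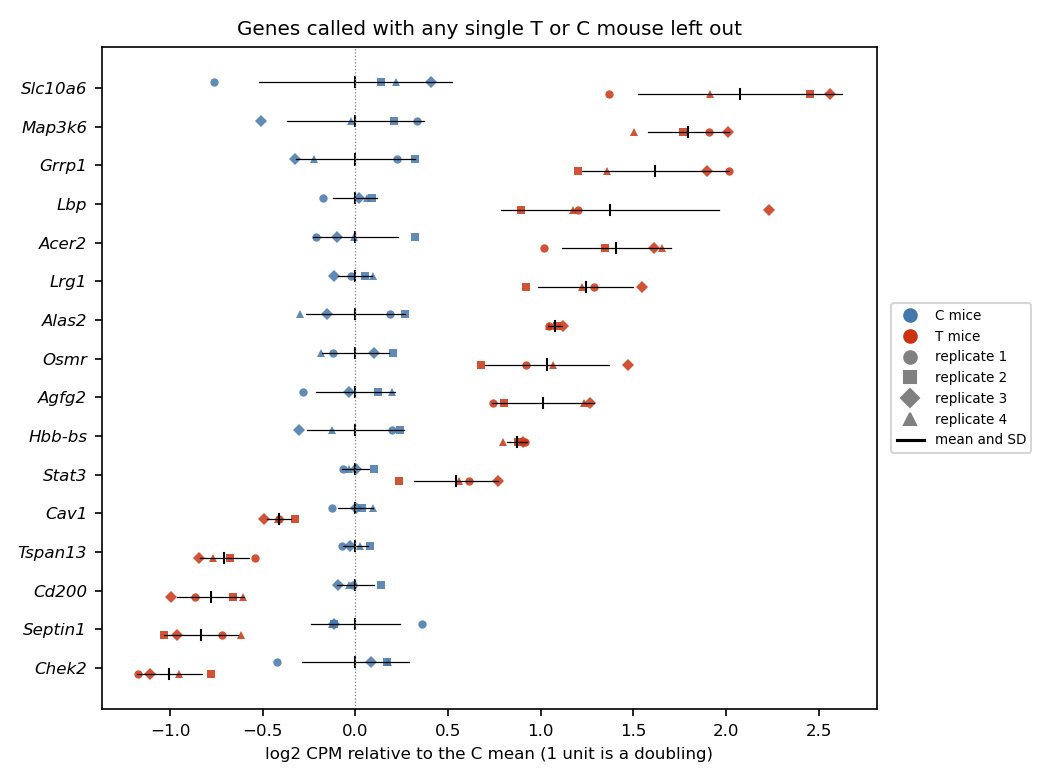
Log2 CPM of each mouse relative to the mean of the C mice (horizontal axis, 1 unit is a 2-fold step) for the 16 genes called with every single mouse left out. Blue symbols are C mice and red symbols T mice, the symbol shape gives the replicate, and the black tick and line give the mean and SD of 4 mice. Red and blue symbols do not overlap for any gene, and the T mice of Alas2 and Hbb-bs lie closer together than those of Slc10a6 or Lbp.

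Several genes of the IL-6 family response and of the acute phase rose in T muscle. Lrg1, which encodes a leucine-rich acute phase glycoprotein, lies on chromosome 17 from 56426283 to 56429001 (minus strand) of GRCm39. It had 12.5, 13.2, 11.8 and 13.6 CPM in C1 to C4 and 31.1, 24.1, 37.2 and 29.8 in T1 to T4. The lowest T mouse was thus well above the highest C mouse, and the log2 fold change was 1.26 (SE 0.14, edgeR, adjusted p = 3.14e-04). Osmr encodes the oncostatin M receptor chain and lies on chromosome 15 from 6843053 to 6904450 (minus strand). It had 14.3, 17.9, 16.7 and 13.7 CPM in C mice and 29.4, 24.8, 43.1 and 32.5 in T mice, with T3 highest and no overlap (log2 fold change 1.05, SE 0.15, edgeR, adjusted p = 0.00324). Stat3, on chromosome 11 from 100775924 to 100830450 (minus strand), had 61.3, 69.0, 64.5 and 62.7 CPM in C mice and 98.3, 75.6, 109.9 and 94.9 in T mice. T2 was only slightly above C2, and the change was less than 2-fold (log2 fold change 0.56, SE 0.09, edgeR, adjusted p = 0.00830). Of 22 tested genes of IL-6 family receptors and STAT3 signaling, 2 rose (Osmr and Stat3), against 0.515% of all genes tested, and 20 did not pass. In this list 7 genes lay wholly higher, against 4.03% of all genes, and 1 wholly lower, against 2.83%, with a median log2 fold change of 0.34 against -0.0012 over all genes. Socs3, the STAT3-induced inhibitor of cytokine receptors, had 3.499, 5.33, 4.56 and 5.69 CPM in C and 10.6, 8.57, 10.3 and 10.6 in T mice. Every T mouse exceeded every C mouse, but the test across all genes was not passed (log2 fold change 1.07, edgeR, adjusted p = 0.172). Bcl3, a nuclear IκB family member that cytokines induce, behaved likewise, with 1.69, 1.77, 1.38 and 0.989 CPM in C, 4.13, 2.40, 5.42 and 4.89 in T and an adjusted p of 0.0740 (edgeR).

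The acute phase list held 11 tested genes, of which 3 rose, Lrg1, Lbp and Serpina3n, against 0.515% of all genes tested, and its median log2 fold change was 1.25. Without T3 that median was 0.70 and without T3 and T4 it was 0.20, so it was carried by those 2 mice. Lbp, the lipopolysaccharide-binding protein gene on chromosome 2 from 158148409 to 158174800 (plus strand), had 7.67, 9.19, 8.77 and 9.04 CPM in C and 19.9, 16.1, 40.6 and 19.5 in T mice. T3 stood above the other T mice, which in turn stood above all C mice (log2 fold change 1.47, SE 0.24, edgeR, adjusted p = 0.0101). Serpina3n, a protease inhibitor gene on chromosome 12 from 104372810 to 104380597 (plus strand), had 3.91, 3.13, 3.18 and 2.80 CPM in C and 9.49, 8.65, 27.9 and 17.0 in T mice (log2 fold change 2.28, SE 0.38, edgeR, adjusted p = 0.0111). The groups were apart by more than a 2-fold step, although neighboring paralogs can share its reads, and without C4 the call was lost (edgeR, adjusted p = 0.0612).

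Because STAT3 acts by binding DNA, the 250 bases before the start of each gene were searched for the letters TTCNNNGAA, a form of the STAT site that reads the same on both strands. RefSeq promoter sequences (GRCm38.p6) were matched for 11577 of the 14749 genes tested, and 831 of them (7.18%) held the letters. A gene with several annotated starts was counted if the stretch before any of them held the letters. Of the called genes with a sequence, 4 of 66 higher in T mice held them (6.06%: Sbno2, Ctla2a, Csf2rb2 and Fas) and 0 of 15 lower ones, a share near that of all genes. The narrower TTCCNGGAA, which is one case of the first, was found for 1.21% of all these genes, for 1 of the 66 higher ones (1.52%, Sbno2) and for 0 of the lower ones. Sbno2, 1 of those 4, encodes a nuclear regulator known from the IL-10 and STAT3 response. It had 9.13, 9.08, 8.34 and 7.78 CPM in C and 13.9, 10.8, 16.6 and 17.6 in T mice, without overlap (log2 fold change 0.78, edgeR, adjusted p = 0.0147). The stretches of Sbno2, of Socs3, the textbook STAT3 target, and of Lrg1 are shown for comparison. Lrg1 shared the smallest adjusted p with Cd200 and Tspan13. Each stretch is on the minus strand of its chromosome and is read 5′ to 3′ toward the gene. For Sbno2, the stretch shown is the first listed of 3 annotated starts, and the narrower letters lie before another of them. Capitals mark the TTCNNNGAA match, which begins 26 bases before the start in Sbno2 and 154 bases before it in Socs3. The Lrg1 stretch has none, and a match or its absence in this window says nothing of where STAT3 is bound.
Sbno2, chr10:80102703-80102952: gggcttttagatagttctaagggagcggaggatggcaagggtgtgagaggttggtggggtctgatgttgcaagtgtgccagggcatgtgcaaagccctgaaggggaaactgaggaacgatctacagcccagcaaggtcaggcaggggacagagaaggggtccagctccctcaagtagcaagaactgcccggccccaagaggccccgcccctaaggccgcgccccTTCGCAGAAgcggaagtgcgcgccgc
Socs3, chr11:117969367-117969616: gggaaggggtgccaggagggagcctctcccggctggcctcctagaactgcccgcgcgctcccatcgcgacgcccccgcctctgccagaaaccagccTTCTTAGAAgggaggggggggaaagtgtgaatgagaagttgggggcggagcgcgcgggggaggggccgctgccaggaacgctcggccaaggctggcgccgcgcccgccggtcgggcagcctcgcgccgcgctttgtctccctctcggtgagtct
Lrg1, chr17:56121947-56122196: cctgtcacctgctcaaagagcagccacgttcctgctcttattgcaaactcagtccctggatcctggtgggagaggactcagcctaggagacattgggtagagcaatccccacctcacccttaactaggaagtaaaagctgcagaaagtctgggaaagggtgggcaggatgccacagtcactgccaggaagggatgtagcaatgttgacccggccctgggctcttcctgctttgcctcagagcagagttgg

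Several neutrophil genes rose from very low levels. Of 38 listed neutrophil genes 17 passed the filter on low counts and 5 of these rose, but Ngp, Ltf and Retnlg, with 0 to 2 counts in each C library, passed it only through groups in which they are higher, so that the count cannot be read against the 0.515% of all genes that were called higher. Over the 17 genes, a selection by that filter, the median log2 fold change was 1.80 (0.97 without T3 and T4, 1.85 without C2 and C3). S100a8 and S100a9 encode the chains of calprotectin, the main cytosolic protein of neutrophils. S100a8 had 0.262, 0.804, 0.297 and 0.0824 CPM in C and 2.68, 2.21, 3.18 and 11.0 in T mice, and S100a9 had 0.671, 2.63, 0.729 and 0.522 in C and 8.05, 4.04, 11.4 and 24.2 in T mice. T4 was highest for both genes, and C2 stood above the other C mice (log2 fold changes 3.70 and 3.38, edgeR, adjusted p = 0.0147 and 0.0147). Retnlg, a resistin-like gene of neutrophils, had 0 counts in every C mouse and 15, 5, 32 and 110 counts in T1 to T4. With 3 counts per library taken as the floor, it was at least 12.7-fold higher in T mice. That bound rests largely on T4, which held 110 of the 162 counts over the T mice. The granule genes Ngp and Ltf summed to 2 counts each over the C mice and to 181 and 101 counts over the T mice. Their ratios were 90.5 (95% counting interval 24.7 to 753) and 50.5 (13.6 to 423), intervals that cover counting error only. The 7 defining neutrophil markers, of which Camp and Ly6g did not pass that filter, summed to 0.632 to 3.43 CPM in C and 8.13 to 42.7 CPM in T mice, and Camp was at 0 in every C mouse besides Retnlg. Without C4 the calls of S100a8 and S100a9 (edgeR, adjusted p = 0.0815 for both) and of Ngp, Ltf and Retnlg (0.0612 for each) were lost. Without C3 those of S100a8, S100a9 and Ltf were lost (edgeR, adjusted p = 0.0640, 0.0640 and 0.0545). With the T and C libraries fitted alone, S100a8 and S100a9 did not pass either (edgeR, adjusted p = 0.0545 for both), and DESeq2 gave no adjusted p for Ltf. Setting Retnlg at its floor bound left the list's median at 1.80.

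Alas2 and 3 of the 4 adult globin genes examined rose in T muscle. Alas2, the erythroid enzyme that starts heme synthesis, lies on chromosome X from 149330371 to 149353634 (plus strand). It had 11.0, 11.7, 8.72 and 7.89 CPM in C and 19.99, 20.6, 21.1 and 20.03 in T mice. The 4 T mice were nearly equal and all above the C mice (log2 fold change 1.06, SE 0.14, edgeR, adjusted p = 0.00136). Hbb-bs, an adult beta globin gene on chromosome 7 from 103475730 to 103482989 (minus strand), had 189, 194, 133 and 151 CPM in C and 310.1, 302, 309 and 286 in T mice (log2 fold change 0.86, SE 0.13, edgeR, adjusted p = 0.00830). Hba-a1 (log2 fold change 0.85, edgeR, adjusted p = 0.0156) and Hbb-bt (0.93, edgeR, adjusted p = 0.0451) also rose. Hba-a2, the other adult alpha globin gene, had 22.4, 18.6, 13.1 and 13.4 CPM in C and 28.2, 21.4, 25.6 and 28.3 in T mice, so that T2 lay below C1, and it did not pass (log2 fold change 0.62, edgeR, adjusted p = 0.121). As near-identical copies the globin genes may share reads. Of 21 tested genes of the erythroid list these 4 rose, against 0.515% of all genes tested, 17 did not pass, and the median was 0.14 (0.09 without T4). The Hba-a1 and Hbb-bt calls were lost without C4 and without C3, and Hbb-bt also without 5 other mice in turn (edgeR, adjusted p up to 0.0830 and 0.145). The 5 defining markers, Alas2 and these 4 globin genes, summed to 223 to 326 CPM in C and 471 to 524 CPM in T mice. How much blood each sample held was not measured, and its part in the neutrophil and red cell values was not tested.

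Several targets of glucocorticoids and stress rose in T muscle. Of 21 tested, 4 rose (Fkbp5, Zbtb16, Map3k6 and Acer2), beside 0.515% of all genes tested, and 11 lay wholly above the C mice, beside 4.03% of all genes. The list was chosen with earlier results of these data known, so these counts cannot be read against those shares. The median log2 fold change was 0.70 (0.46 without T3 and T4). Map3k6, a stress-activated kinase gene on chromosome 4 from 132968091 to 132980241 (plus strand), had 5.66, 5.197, 3.16 and 4.42 CPM in C and 16.9, 15.3, 18.2 and 12.8 in T mice. Acer2, an alkaline ceramidase gene on chromosome 4 from 86792537 to 86853061 (plus strand), had 9.48, 13.7, 10.2 and 10.9 CPM in C and 22.2, 27.9, 33.5 and 34.5 in T mice. Both were wholly apart (log2 fold changes 1.78 and 1.41, edgeR, adjusted p = 0.00830 and 0.00830) and stayed called without any single mouse. In trained mice both overlapped between TE and E (log2 fold changes 0.54 and 0.47, edgeR, adjusted p = 0.567 and 0.529). The tumor-free trained mouse E2, at 15.8 CPM for Map3k6 and 23.1 for Acer2, lay within the range of the T mice. Fkbp5, the glucocorticoid receptor co-chaperone on chromosome 17 from 28618058 to 28737521 (minus strand), had 32.2, 19.0, 22.1 and 20.6 CPM in C and 94.1, 42.8, 142 and 48.8 in T mice, with T1 and T3 far above T2 and T4 (log2 fold change 1.80, edgeR, adjusted p = 0.0451). Zbtb16, a transcriptional repressor that glucocorticoids induce, had the same order of T mice, from 65.0 CPM in T2 to 182 in T3, against 38.7 to 46.8 in C mice (log2 fold change 1.49, edgeR, adjusted p = 0.0392). The Fkbp5 and Zbtb16 calls were lost without any 1 of the 4 C mice, T1 or T3, with edgeR adjusted p-values up to 0.154 and 0.139. Glul, glutamine synthetase, was wholly higher (218 to 284 CPM in C, 311 to 487 in T) but did not pass (edgeR, adjusted p = 0.134), and Mt2, a metallothionein, was 12.01, 4.39, 2.67 and 2.47 in C and 22.4, 6.88, 32.2 and 14.4 in T mice, which overlapped.

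Foxo1 and Foxo3 rose by less than 2-fold. Foxo1, on chromosome 3 from 52175757 to 52260642 (plus strand), had 22.9, 23.3, 27.7 and 25.2 CPM in C and 44.8, 29.8, 41.8 and 40.4 in T mice (log2 fold change 0.66, SE 0.12, edgeR, adjusted p = 0.0195). Foxo3, on chromosome 10 from 42057837 to 42154007 (minus strand), had 30.4, 29.7, 31.1 and 29.9 CPM in C and 44.5, 36.7, 49.3 and 37.0 in T mice (log2 fold change 0.47, SE 0.09, edgeR, adjusted p = 0.0335). T and C mice did not overlap in either gene, but each call was lost without T1 or T3 and without most C mice (edgeR, adjusted p up to 0.0815 and 0.118). Of 20 tested FoxO factors and targets these 2 rose, against 0.515% of all genes tested, 5 lay wholly higher, against 4.03%, and the median was 0.22 (0.11 without T3, 0.39 without T2). Fbxo32 had 362, 233, 413 and 417 CPM in C and 576, 473, 1299 and 421 in T mice. T3 alone was far above the rest, T4 was just above C4, and the log2 fold change of 0.96 had an adjusted p of 0.249 (edgeR). Trim63 overlapped, with 334, 269.6, 272 and 310.2 CPM in C and 380.2, 274, 624 and 305 in T mice (log2 fold change 0.42, edgeR, adjusted p = 0.452). Of 21 tested ubiquitin ligases and atrophy genes 0 passed, a count that the 0.515% and 0.163% of all genes called higher and lower also give for a list of this size, with 14 higher, 7 lower and a median of 0.12 (0.07 without C2). Myostatin (Mstn) had 93.1 to 144 CPM in C and 78.1 to 142 in T mice, with a log2 fold change of 0.01 and a 95% interval from -0.30 to 0.32. Of 31 tested IGF, insulin and PI3K-Akt genes 0 rose, against 0.515% of all genes tested, 2 fell (Ccnd1 and Kdr), against 0.163%, and the median was 0.13 (0.04 without T3). Pdpk1, the kinase PDK1, which was in none of the lists, had 26.0 to 34.1 CPM in C and 38.4 to 43.6 in T mice (log2 fold change 0.46, edgeR, adjusted p = 0.0147), and its call was lost without C4 or T3 and with the T and C libraries fitted alone (edgeR, adjusted p up to 0.0815 with 1 mouse left out).

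In the same libraries Arntl, the clock activator BMAL1, rose, with 7.70, 7.05, 6.13 and 6.29 CPM in C and 14.2, 9.18, 26.3 and 16.2 in T mice, again with T3 highest and T2 lowest (log2 fold change 1.28, edgeR, adjusted p = 0.0439). Npas2, a partner of BMAL1, was wholly higher (0.0875, 0.0536, 0.135 and 0.0824 CPM in C, 0.577, 0.249, 1.66 and 0.525 in T) and Hlf, a clock output factor, wholly lower (22.2, 24.9, 24.9 and 25.6 in C, 15.4, 19.3, 11.9 and 13.1 in T), each just short of the threshold (edgeR, adjusted p = 0.0509 and 0.0529). In C mice Npas2 lay near the floor of 3 counts per library, which is 0.0804 to 0.0875 CPM there. Levels that low do not pass the filter on low counts by themselves, so its place among the genes tested rested on other groups. Of 19 tested clock genes 1 rose, against 0.515% of all genes tested, and the median was -0.07 (-0.13 to 0.07 with 1 mouse left out). The hour at which tissue was taken is not given in the sources used here, and the Arntl call was lost without any C mouse, T1, T3 or T4 (edgeR, adjusted p up to 0.143).

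**Figure D3:**
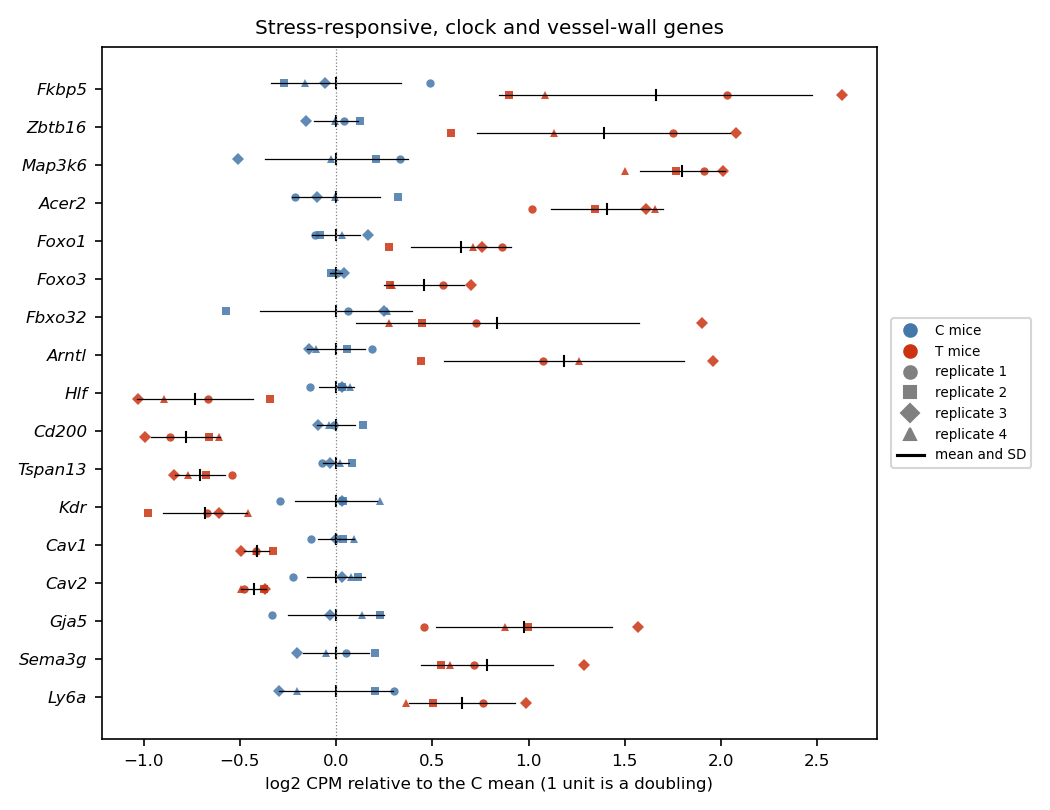
Log2 CPM of each mouse relative to the C mean (horizontal axis) for stress-responsive, FoxO, clock and vessel-wall genes, with blue C mice, red T mice, symbol shapes for replicates and black ticks and lines for mean and SD of 4 mice. T3 lies farthest right for Fkbp5, Zbtb16, Fbxo32 and Arntl and farthest left for Hlf and Cd200, whereas the 4 T mice lie close together for Cav1 and Cav2.

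The endothelial list was chosen with earlier results of these data known, so its counts cannot be read against the shares of all genes. Of its 36 tested genes 5 fell (Cd200, Tspan13, Cav1, Cav2 and Kdr) and 1 rose (Grrp1), beside 0.163% and 0.515% of all genes tested. By sign alone 21 were higher and 15 lower. In this list 5 genes lay wholly higher and 6 wholly lower, beside 4.03% and 2.83% of all genes. The median was 0.11 (-0.05 without T3). The summed level of Pecam1, Cdh5, Kdr and Emcn overlapped between groups (446 to 566 CPM in C, 428 to 572 in T). Cd200, a surface glycoprotein that restrains myeloid cells, lies on chromosome 16 from 45202470 to 45229594 (minus strand). It had 64.0, 71.1, 60.4 and 63.0 CPM in C and 35.4, 40.8, 32.4 and 42.3 in T mice, so the highest T mouse was well below the lowest C mouse (log2 fold change -0.78, SE 0.09, edgeR, adjusted p = 3.14e-04). Tspan13, a tetraspanin gene on chromosome 12 from 36061362 to 36092715 (minus strand), had 80.5, 89.6, 83.0 and 86.1 CPM in C and 58.2, 53.0, 47.2 and 49.8 in T mice (log2 fold change -0.70, SE 0.08, edgeR, adjusted p = 3.14e-04). Both genes were 1.71 and 1.63 times as high in C as in T mice, with little spread within groups. Cav1 and Cav2, neighbors on chromosome 6 that encode the coat proteins of caveolae, fell by similar amounts. Cav1, on chromosome 6 from 17306140 to 17341451 (plus strand), had 452, 506, 494 and 527 CPM in C and 370.3, 393, 351 and 370.0 in T mice, and Cav2 had 62.7, 79.2, 74.8 and 77.2 and 52.6, 56.4, 56.6 and 51.9 (log2 fold changes -0.41 and -0.43, edgeR, adjusted p = 0.00412 and 0.0335). Kdr, the VEGF receptor VEGFR2, had 100.4, 126, 126 and 144 CPM in C and 77.2, 62.3, 80.4 and 89.3 in T mice (log2 fold change -0.68, edgeR, adjusted p = 0.0457). These levels were wholly apart, but the Cav2 and Kdr calls were each lost without 6 of the 8 mice in turn, T3 and the replicates C2, C3 and C4 among them (edgeR, adjusted p up to 0.134 and 0.153).

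In the other direction, Grrp1 (named Fam110d in GENCODE, on chromosome 4 from 133978398 to 133981439 (minus strand)) had 4.99, 5.33, 3.40 and 3.65 CPM in C and 17.2, 9.81, 15.9 and 10.9 in T mice (log2 fold change 1.63, SE 0.21, edgeR, adjusted p = 0.00136). Apart from that list, 3 called genes that belong to none of the lists, Gja5, Sema3g and Entpd1, and Ly6a are described here for what they encode, which was decided after their values were seen, and they are no evidence of a direction of vessel genes. Gja5, the connexin 40 of arterial endothelium, had 5.45 to 8.06 CPM in C and 9.43 to 20.4 in T mice (log2 fold change 1.015, edgeR, adjusted p = 0.0147). Sema3g, a semaphorin of arterial endothelium, had 25.9 to 34.3 CPM in C and 43.6 to 72.8 in T mice (log2 fold change 0.81, edgeR, adjusted p = 0.0147). Entpd1 (CD39), which removes extracellular ATP, had 21.3 to 27.3 CPM in C mice, 80.6 in T3 and 39.97 to 45.7 in the other T mice (log2 fold change 1.09, edgeR, adjusted p = 0.0119). Ly6a (Sca-1), a surface protein of vascular and progenitor cells that stood in the epithelial list, had 39.7 to 59.95 CPM in C and 62.6 to 96.4 in T mice (log2 fold change 0.65, edgeR, adjusted p = 0.0476). The calls of Gja5, Sema3g, Entpd1 and Ly6a were lost without C3 and without C4, and that of Ly6a also without C2, T1 or T3 (edgeR, adjusted p up to 0.0612, 0.0809, 0.0612 and 0.161). Epithelial and carcinoma markers (Epcam, Krt8, Krt18, Cdh1 and Vil1), of which 2 were tested, summed to 3.08 to 6.94 CPM in C and 2.32 to 5.71 in T mice.

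Few complement and matrix genes changed, and the medians of both lists were lower without T3 and T4. Of 16 tested complement genes 2 rose, C4b and Serping1, against 0.515% of all genes tested, and the median was 0.60 (0.31 without T3 and 0.14 without T3 and T4). C4b, a component of the classical pathway, had 4.69, 9.83, 10.5 and 4.92 CPM in C and 17.4, 15.4, 49.8 and 32.5 in T mice (log2 fold change 1.94, edgeR, adjusted p = 0.0314). Serping1, the C1 inhibitor, had 76.2, 86.9, 70.9 and 74.0 in C and 109, 95.2, 176 and 108 in T mice (log2 fold change 0.67, edgeR, adjusted p = 0.0467). T and C mice did not overlap in either gene, and T3 was highest in both. Of 38 tested fibroblast, collagen and matrix genes 2 rose, the matrix proteases Mmp14 (13.8 to 15.8 CPM in C, 17.4 to 37.9 in T, edgeR, adjusted p = 0.0147) and Mmp3 (0.0540 to 0.777 in C, 0.8292 to 3.82 in T, edgeR, adjusted p = 0.0476). The other 36 did not pass, the share of 2 in 38 again standing against 0.515%, and the median of that list was 0.27, which became 0.05 without T3, 0.09 without T4 and -0.22 without both. Col4a3 and Col4a4, basement membrane collagen chains encoded head to head on chromosome 1, fell and were in none of the lists. Col4a3 had 2.57, 3.08, 3.86 and 3.68 CPM in C and 1.67, 1.88, 1.37 and 1.41 in T mice, and Col4a4 had 2.099, 2.38, 2.51 and 3.11 and 1.64, 1.02, 1.08 and 1.16 (log2 fold changes -1.06 and -1.04, edgeR, adjusted p = 0.0133 and 0.0377). Their annotated ends overlap by some bases, so part of their counts may be shared. Without T3 or without C4, the C4b, Serping1, Mmp14, Mmp3 and Col4a4 calls were lost (edgeR, adjusted p up to 0.133, 0.145, 0.0815, 0.159 and 0.140).

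Lists of other resident and infiltrating cells held few called genes. Of 28 tested monocyte and macrophage genes 24 were higher, 1 fell, against 0.163% of all genes tested, and 0 rose, and the median of 0.76 was 0.47 without T4 and 0.13 without T3 and T4. The gene that fell was Nos2, inducible nitric oxide synthase, with 6.97, 7.72, 11.3 and 12.5 CPM in C and 3.46, 5.06, 2.03 and 5.61 in T mice (log2 fold change -1.25, edgeR, adjusted p = 0.0476). The 5 macrophage markers summed to 24.3 to 45.9 CPM in C and 35.0 to 65.4 in T mice. In the Schwann cell list 1 of 24 tested genes fell (0.163% of all genes tested did), Pmp2, a lipid-binding protein of peripheral myelin, with 6.65, 8.49, 6.48 and 5.22 CPM in C and 1.88, 2.40, 2.68 and 2.71 in T mice (log2 fold change -1.47, edgeR, adjusted p = 0.0338). The median of that list was -0.44, -0.23 without C2 and -0.04 without C2 and C3, in which the 4 Schwann markers summed to 953 and 705 CPM against 298 to 613 in the other 6 libraries. T and NK cell genes had a median of -2.41 and B cell and lymph node genes one of -2.78, with 0 of 19 and 0 of 18 called, which for lists of this size is near the 0.515% and 0.163% of all genes called higher and lower. Without C3 these medians were -1.03 and -1.77, and without C2 and C3 they were 0.22 and -0.91, so their size rested on those 2 control libraries. Of 25 tested adipocyte and lipogenesis genes 1 rose (0.515% of all genes tested did), the lipid synthesis regulator Srebf1, with 44.6, 43.5, 42.9 and 44.4 CPM in C and 77.9, 81.4, 53.1 and 76.3 in T mice (log2 fold change 0.72, edgeR, adjusted p = 0.0111). Srebf1 was lowest in T3, the T mouse with the highest adipocyte markers, whose 4 genes summed to 51.1 CPM in T3, 41.4 in T4 and 3.64 to 21.7 in the other 6 libraries.

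**Figure D4:**
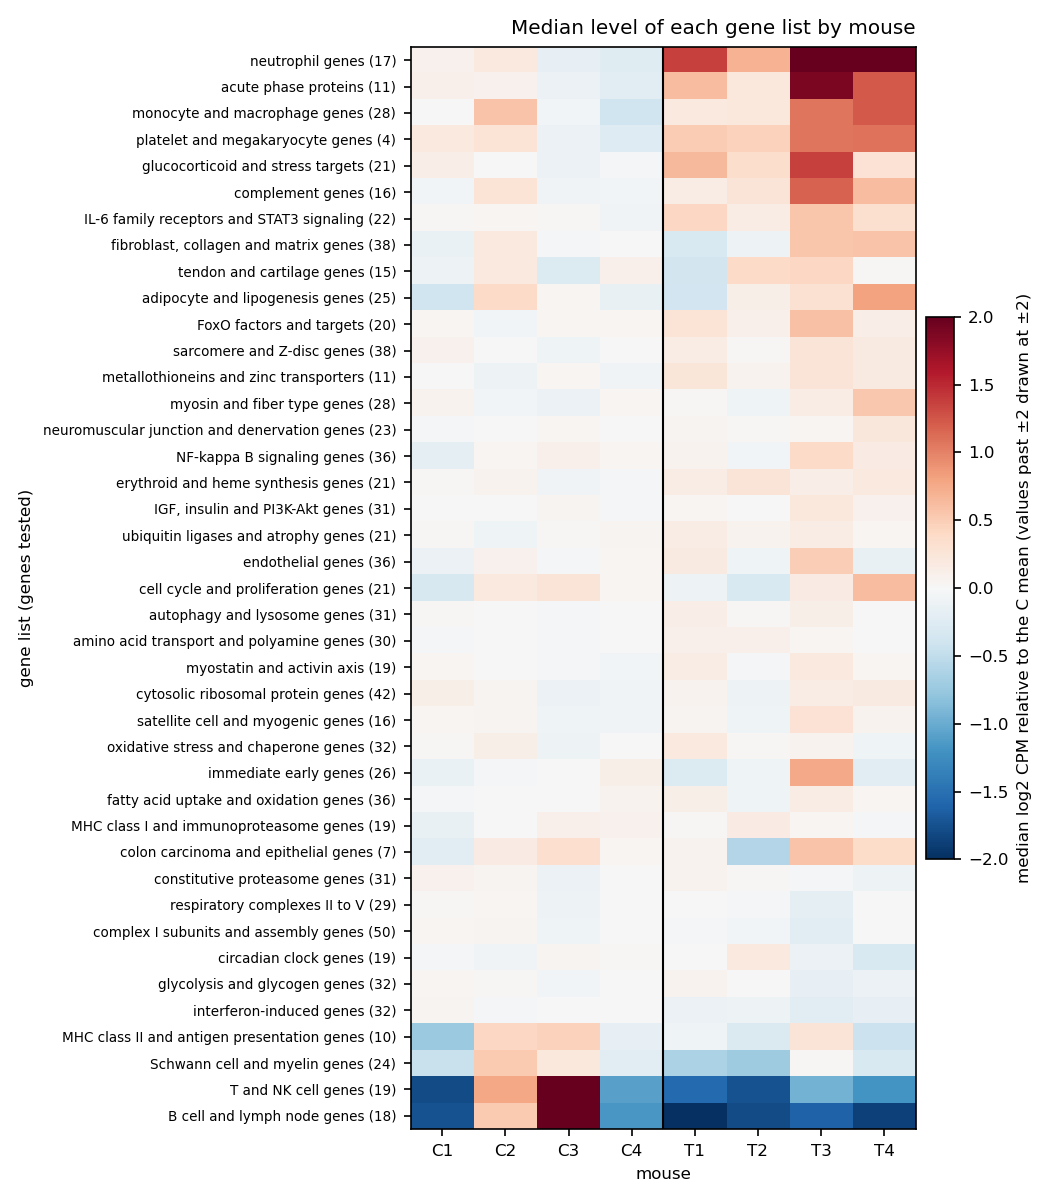
Each line is 1 of 41 gene lists with the number of genes tested in brackets, each column is 1 of the 8 mice, and color gives the median over the list of log2 CPM relative to the C mean, from blue (lower) to red (higher), with values past 2 drawn at 2. The neutrophil list is red in all T mice, the acute phase, complement, and monocyte and macrophage lists are strongest in T3 and T4, and the T and NK cell and B cell lists are red in C2 and C3 only.

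Genes of the contractile apparatus and of energy metabolism differed by small amounts between the groups, and none of their lists, nor those of ribosomal protein, interferon-induced, proteasome, autophagy, satellite cell and neuromuscular junction genes, held a called gene. With 0.515% of all genes called higher and 0.163% lower, lists of these sizes would be near 0 calls at the share of all genes, so the 0 is not a result about their members. Of 38 tested sarcomere and Z-disc genes 29 were higher and 9 lower, with a median of 0.19. The main fast myosin Myh4 lay between 30961 to 32643 CPM in C and 31383 to 37108 in T mice (log2 fold change 0.06, edgeR, adjusted p = 0.778). Embryonic myosin, Myh3, was 2.13, 2.30, 2.00 and 2.91 in C and 2.25, 2.93, 7.61 and 71.5 in T mice, so its log2 fold change of 3.17 came from T4 (edgeR, adjusted p = 0.0776). T4 also held most of the Tnc signal, a matrix protein of repair and tendon, with 2.28, 2.13, 3.55 and 38.2 CPM in T1 to T4 and 1.31 to 2.08 in C mice. Of 50 tested complex I genes 42 were lower by small amounts (median -0.07), and of 42 tested ribosomal protein genes 39 were higher by similarly small amounts (median 0.07). Ribosomal protein genes gave a median of -0.02 without T3 and T4. The lists of interferon-induced, proteasome, autophagy, glycolysis, fatty acid, satellite cell, neuromuscular junction and myosin genes had medians between -0.14 and 0.16.

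Most called genes belonged to none of the 41 lists (64 of 100). Slc10a6, a transporter of sulfated steroids on chromosome 5 from 103753575 to 103777401 (minus strand), had 0.875, 1.63, 1.97 and 1.73 CPM in C and 3.84, 8.15, 8.76 and 5.61 in T mice, wholly apart (log2 fold change 2.08, SE 0.34, edgeR, adjusted p = 0.0101). Agfg2, on chromosome 5 from 137648725 to 137683019 (minus strand), had 2.89 to 4.04 CPM in C and 5.89 to 8.45 in T mice (log2 fold change 1.02, SE 0.17, edgeR, adjusted p = 0.0119). Tmem252 had 0.675 to 1.23 CPM in C mice and 4.21, 5.11, 18.8 and 3.18 in T1 to T4, with T3 far above the others (log2 fold change 3.16, edgeR, adjusted p = 0.0147). Of 21 tested cell cycle and proliferation genes 1 fell, Ccnd1, against 0.163% of all genes tested, and the median was 0.11 (-0.14 to 0.29 with 1 mouse left out). Ccnd1, cyclin D1, was an exception to separation, with 7.81, 17.4, 16.1 and 15.3 CPM in C and 5.97, 8.32, 5.97 and 8.12 in T mice, since C1 lay among the T mice (log2 fold change -0.999, edgeR, adjusted p = 0.0451). Chek2, the DNA damage checkpoint kinase on chromosome 5 from 110987826 to 111022011 (plus strand), had 6.79, 10.3, 9.66 and 10.3 CPM in C and 4.04, 5.31, 4.24 and 4.72 in T mice (log2 fold change -1.02, SE 0.14, edgeR, adjusted p = 0.00341). Septin1, a cytoskeletal GTPase gene on chromosome 7 from 126812948 to 126832302 (minus strand), had 28.5, 20.4, 20.5 and 20.3 in C and 13.4, 10.8, 11.4 and 14.5 in T mice (log2 fold change -0.84, SE 0.13, edgeR, adjusted p = 0.00830). Vstm5, with 2 counts over the C mice and 35 over the T mice, had a ratio of 17.5 (95% counting interval 4.50 to 150.2). St14, the membrane protease matriptase, also rested on few counts, with 1, 4, 4 and 7 in C and 31, 9, 41 and 20 in T mice.

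Some further called genes are named after their values were seen, for what they do. Csf2rb2, a receptor subunit for IL-3, rose (1.25 to 4.16 CPM in C, 6.03 to 11.6 in T, edgeR, adjusted p = 0.0314), as did Jak3, a kinase of cytokine receptors (4.49 to 6.94 in C, 9.21 to 11.8 in T, edgeR, adjusted p = 0.0451). Fas, the death receptor, was 5.63, 7.55, 3.97 and 4.01 CPM in C and 10.7, 11.3, 11.3 and 10.6 in T mice (log2 fold change 1.05, edgeR, adjusted p = 0.0335). Nos1, the neuronal nitric oxide synthase of muscle fibers, rose slightly (34.4 to 38.5 CPM in C, 41.0 to 54.5 in T, edgeR, adjusted p = 0.0335), and so did Trim72, which repairs tears of the fiber membrane (128 to 166 in C, 179 to 226 in T, edgeR, adjusted p = 0.0347). Eif4e2, a cap-binding protein, rose by only 0.23 on the log2 scale (47.6 to 49.0 CPM in C, 55.4 to 56.4 in T, edgeR, adjusted p = 0.0471). Ifi203, an interferon-inducible DNA sensor, fell (32.1 to 40.3 CPM in C, 18.8 to 28.9 in T, edgeR, adjusted p = 0.0349), whereas Ifitm3, an antiviral membrane protein that cytokines induce, rose (58.2 to 80.0 in C, 90.1 to 109.6 in T, edgeR, adjusted p = 0.0335).

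The T mice differed in how far they had moved from the C mice. Among the 76 higher genes, T3 was the farthest T mouse in 48, T4 in 17, T2 in 6 and T1 in 5, whereas T2 was the nearest in 43. The median log2 difference of these genes from the C mean was 0.91 in T1, 0.61 in T2, 1.22 in T3 and 0.80 in T4. The 24 lower genes were more even, with medians of -0.73, -0.67, -0.86 and -0.60 in the same order. T3 was farthest for Osmr, Lrg1, Lbp, Fkbp5, Zbtb16, Arntl and Fbxo32, while T4 was farthest for S100a8, S100a9, Ngp, Retnlg and Myh3. Without T3 and T4, edgeR called 23 genes.

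The same tumor contrast in trained mice, TE versus E, gave 34 calls (0.231% of the genes tested), 17 in each direction. Of these, 12 were also called in T versus C mice, in the same direction in each case, which is 12% of the T versus C calls and 35.3% of the TE versus E calls. They were Lrg1, Osmr, Alas2, Hbb-bs, Hbb-bt, Hba-a1, Grrp1, Jak3 and Ifitm3, which were higher with a tumor, and Chek2, Col4a4 and Denn2b, which were lower. Lrg1 had 13.2, 14.9, 12.6 and 15.1 CPM in E1 to E4 and 22.3, 27.2, 27.2 and 36.8 in TE1 to TE4 (log2 fold change 1.03, edgeR, adjusted p = 0.00425). Alas2 had 8.38, 11.1, 10.8 and 10.01 in E and 24.6, 20.4, 20.2 and 29.4 in TE mice (1.23, edgeR, adjusted p = 7.75e-04). Osmr had 13.5, 17.4, 16.8 and 17.5 in E and 27.6, 29.7, 31.4 and 36.6 in TE mice (0.94, edgeR, adjusted p = 0.00698). None of the 3 overlapped between tumor-bearing and tumor-free trained mice.

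Of the 76 genes higher in T mice, 65 were also higher in TE than in E mice, with a median log2 fold change of 0.39, and 25 of the 76 (32.9%) lay wholly higher, against 2.68% of all genes tested. Of the 24 lower genes, 22 were lower in TE mice, with a median of -0.27, and 11 (45.8%) lay wholly lower, against 3.95% of all genes tested. Genes that showed little difference in trained mice included Zbtb16 (log2 fold change 0.12), Arntl (0.06), Agfg2 (0.09), Foxo3 (0.13) and Serping1 (0.05). Mmp14 was 0.87 in untrained and -0.26 in trained mice. The difference between the 2 contrasts was tested as an interaction of tumor and training, which called 0 genes by edgeR (smallest adjusted p = 0.389, 1358 genes at an unadjusted p-value under 0.05) and 20 by DESeq2. Without T2 edgeR called 1 gene. The smaller medians in trained mice fall on genes that were selected for their size in the untrained ones.

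**Figure D5:**
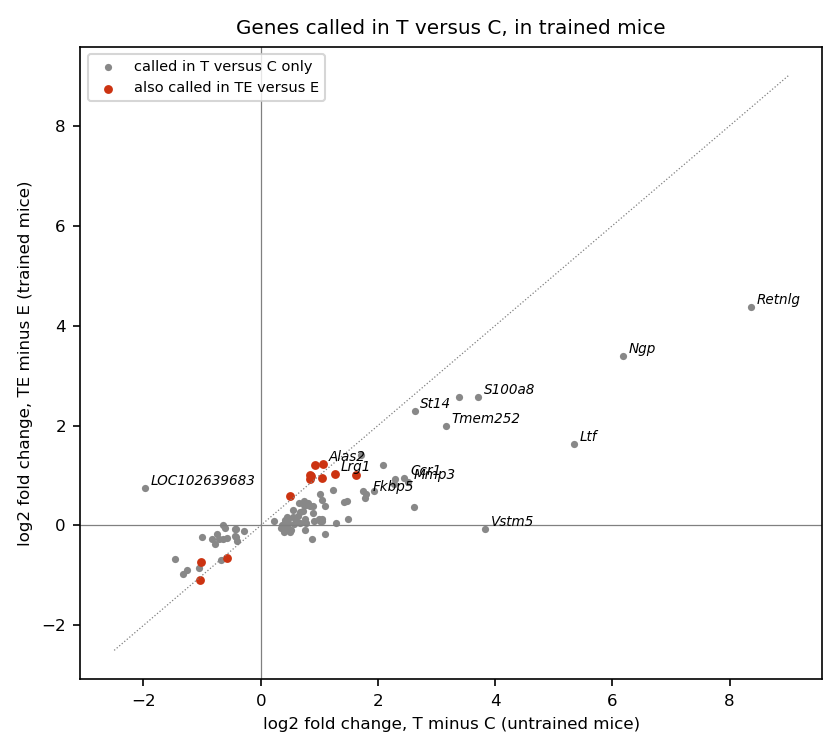
Each point is 1 of the 100 genes called in T versus C mice, with its log2 fold change in untrained mice (T minus C) on the horizontal axis and in trained mice (TE minus E) on the vertical axis, and the dotted line marks equal values. Red points are the 12 genes also called in TE versus E. Most points lie between the horizontal axis and the dotted line, while Vstm5 lies near a trained difference of 0 and LOC102639683 differs in direction.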

How the data were processed

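PolyA RNA of gastrocnemius muscle was sequenced from 16 mice, and the 4 T and 4 C libraries were compared, grouped by their labels. The authors trimmed reads with fastp 0.20.1, aligned them to GRCm39 with HISAT2 2.1.0 and deposited raw counts per gene from HTSeq 0.11.2 (versions per the submitters' processing notes). The authors also deposited FPKM values, which equal these counts divided by library total and a gene length (checked on 16037 genes with more than 50 counts). The annotation release and strand setting are not given in the sources used here, so counts of overlapping genes and near-identical paralogs are uncertain. The tables held 0 columns of other samples.

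Counts of all 16 libraries were tested with edgeR 4.0.16 in R 4.3.3 (filterByExpr, TMM factors, quasi-likelihood test, 1 coefficient per group, two-sided, Benjamini-Hochberg adjustment over 14749 genes), after a test on simulated data. All adjusted p-values in the text are from edgeR unless DESeq2 is named. CPM uses TMM factors, and log2 CPM for overlaps and distances a prior count of 2. Genes are without overlap where every T mouse lies on the same side of every C mouse. The study used DESeq2 for its DEGs, and DESeq2 1.42.0 was an alternative here, besides other size factors, no filter on low counts, a fit of the T and C libraries alone, a robust fit, the replicate block, each mouse left out, and FPKM scaling. Leaving out C2 and C3, or T3 and T4, was added after the data were seen.

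The 41 gene lists, markers and rule for named genes were chosen with earlier results of these data known. A count of called members beside the share of all genes is therefore a description, and no test of a list. Named were the 40 called genes with the smallest p, the 10 with the largest change in each direction, called members of lists, up to 4 members with the smallest p per list, and genes that define the question, such as Fbxo32 and Mstn. Lists are described by counts and medians, with no set test. Positions come from GENCODE M39 on GRCm39, in which 235 of 237 genes were found. At these depths 3 counts, the floor used here, are 0.0789 to 0.0875 CPM in the 8 libraries, and PCR copies cannot be told from molecules. Nothing in the labels says that libraries were technical repeats, and each is taken as 1 mouse. Figures were drawn with matplotlib 3.10.9.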

Additional observations from a re-analysis of the deposited data

Results flagged for a closer look

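Among 106 genes, each group of 4 mice was examined for a mouse whose gap to the nearest other mouse exceeded Dixon's critical value for 4 samples, 212 groups in all. Chance gives about 1 such group in 20, and 14 were found. In the T group, T3 stood above the other T mice for Lbp (40.6 CPM), Entpd1 (80.6 CPM), Tmem252 (18.8 CPM) and Mknk2 (297.9 CPM). T4 stood above the others for S100a8 (11.0 CPM) and Myh3 (71.5 CPM). T2 stood below the others for Eif4e2 (55.4 CPM), Rbl1 (3.10 CPM) and Socs3 (8.57 CPM). In the C group, C2 stood above the other C mice for S100a9 (2.63 CPM), Sema7a (38.4 CPM) and Lgals3 (8.81 CPM), C1 for Septin1 (28.5 CPM) and C3 for Ngp, where 0.0540 CPM stood against 0 in the others. Mknk2, Eif4e2, Rbl1, Sema7a and Lgals3 are named here because of these values. None of these mice reached the other group, and no explanation was tested.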

How the results depend on the processing

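The number of called genes, 100 with edgeR on all libraries, was 424 with DESeq2, 174 with no filter on low counts and 30 with the T and C libraries alone. With 1 mouse left out it ranged from 16 (without C4) to 255 (without T2), and it was 9 without C2 and C3 and 23 without T3 and T4. The 42 DEGs became 102 with DESeq2, 64 with no filter, 18 with T and C alone, 74 at a fold change above 1.5 and 325 at the unadjusted p. They ranged from 7 to 90 with 1 mouse left out, and were 4 without C2 and C3 and 10 without T3 and T4. The 34 TE versus E calls became 178 with DESeq2 and 69 with no filter, and ranged from 18 to 33 with 1 mouse left out. The interaction gave 20 genes with DESeq2 and 0 to 1 with 1 mouse left out. The 1012 genes without overlap ranged from 1351 to 1831 with 1 mouse left out and were 2863 without C2 and C3 and 2790 without T3 and T4, which fewer mice favor by construction. The separation of profiles ranged from 3.65 to 8.60 with 1 mouse left out, and passed 0.05 only without T1, T2 or T4 (exact permutation p up to 0.0857 otherwise). The cause of the fall in calls without C4 was not tested.

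With the replicate block there were 77 called genes and 27 DEGs, and 39 of the 100 calls were lost. The numbers name different mice, and same-numbered T and C mice did not deviate together (correlations of 0.172, -0.0954, 0.0844 and -0.0407), so this block was not used in the text. No called gene reversed in any of the 15 settings that gave it a test. DESeq2 gave no adjusted p for Ltf and Vstm5, and Retnlg, St14 and Vstm5 were not tested with the T and C libraries alone. Of the 41 list medians 36 moved by over 1.5 times with at least 1 mouse left out, and 17 changed sign in at least 1 setting, among them the endothelial, matrix, clock, adipocyte, ribosomal protein and T and NK cell lists. Depth limits mainly the neutrophil genes, Vstm5, St14, Npas2, Mmp3 and most of the T and B cell markers, with few counts in some or all libraries.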
